A study of Homo sapiens with 6 samples.

Results

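The non-keratin intermediate filament genes are VIM, DES, NES, NEFL, NEFM, NEFH, INA, GFAP, PRPH and SYNM. They were taken by symbol from the deposited table of estimated counts, where all 10 were found among 19899 genes. Their RNA was compared between COV434 cells that had received a control plasmid, pCDNA3-neo (Control, n = 3), and COV434 cells that had received the BRG1 plasmid PBJ5-BRG1 (BRG1, n = 3). COV434 is an established ovarian cell line, which the study counts among its hypercalcemic small cell ovarian carcinoma lines, grown in RPMI-1640 with serum. Cells of both groups also carried the puromycin resistance plasmid pBABE-puro, went onto 2 to 3 µg/ml puromycin after 24 hours and were collected after 3 days of selection, so both groups are transfected and puromycin-selected populations. BRG1 is the SWI/SNF ATPase encoded by SMARCA4, and here it was supplied from a plasmid.

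Intermediate filaments are the cytoskeletal ropes whose protein subunits differ with cell type. Vimentin (VIM) is the filament of mesenchymal and many cultured cells, desmin (DES) of muscle, glial fibrillary acidic protein (GFAP) of astrocytes and peripherin (PRPH) of peripheral neurons. The neurofilament subunits NEFL, NEFM and NEFH and internexin (INA) build the filaments of axons. Nestin (NES) and synemin (SYNM) are large subunits that assemble with vimentin or desmin, and nestin is widely used to mark neural progenitors.

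Library totals ran from 29699759 to 63613736 estimated counts, and BRG1 sample 3 was the shallowest. Values below are CPM, the counts scaled to a common library size, after TMM correction. SMARCA4 lay between 31.6 and 36.7 CPM in the Control samples and at 2316, 1714 and 1729 CPM in BRG1 samples 1 to 3, plasmid transcripts included. The other ATPase gene, SMARCA2, was at 0.774 CPM or less in every sample. A gene was called when its edgeR quasi-likelihood p, adjusted by Benjamini-Hochberg over all 14246 genes that passed the low-count filter, was under 0.05. Same-numbered Control and BRG1 samples varied together, so fits with the replicate number as a block were also made, in edgeR and in DESeq2.

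NES and DES were the filament genes called higher with BRG1. VIM, NEFL, NEFH, PRPH and SYNM were tested and not called, and NEFM, INA and GFAP did not pass the low-count filter. NES (chromosome 1, 156668763 to 156677407, minus strand, GRCh38) was 4.96-fold higher. DES (chromosome 2, 219418377 to 219426735, plus strand) went from 0 counts in every Control library to a low level in every BRG1 library. VIM, the most abundant of the genes per length, had a log2 fold change of 0.43 and overlapped between groups. No filament gene was called lower (0 genes by edgeR, 0 by DESeq2, and 0 with an unadjusted p under 0.05 by either tool, against 1, NEFL, in edgeR with the replicate block). In the higher direction, 4 had an unadjusted p under 0.05 in edgeR with the block, namely DES, NES, PRPH and VIM. Without the block, edgeR had 2 such genes, DES and NES, and DESeq2 had 3, with VIM added. Of the 10 genes, 7 passed the filter and 2 of these were called higher, beside 9.57% of all tested genes called higher and 1.02% called lower. DES passed the filter through its BRG1 samples alone, so the share of 2 in 7 carries no weight against that background. The same background applies to the counts called in the related lists below. The median log2 fold change of the 7 tested genes was 0.42, also with DES at its lower bound, and that of all tested genes was -0.04.

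**Figure D1:**
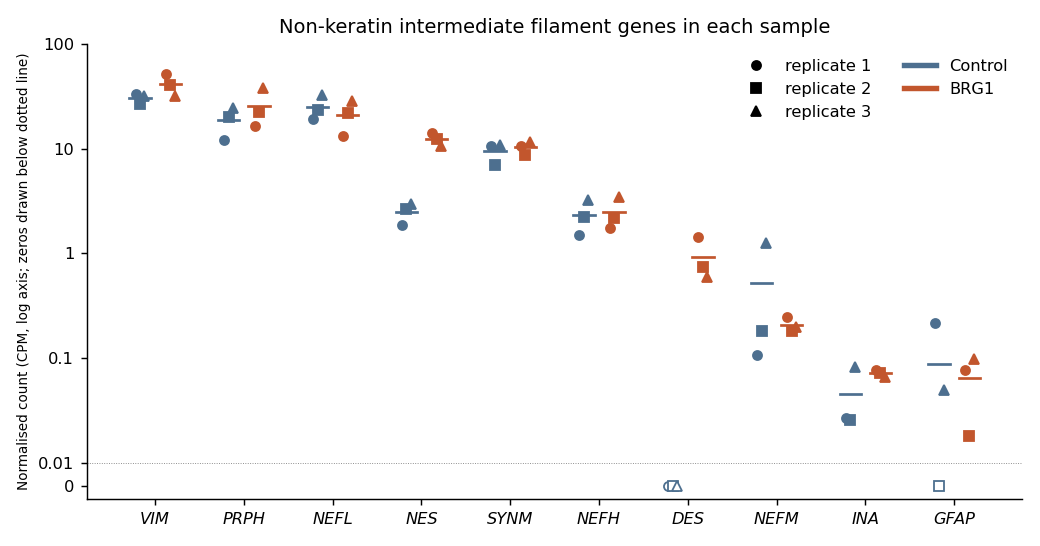
CPM of each filament gene on a log axis in the 3 Control (blue) and 3 BRG1 (orange) samples, with marker shapes for the replicate numbers, bars for group means and open symbols below the dotted line for 0 counts. NES and DES are the genes whose groups stand apart, with NES at 2.95 CPM or less in Control and at 10.6 CPM or more in BRG1 samples.

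The promoters of NES, the clearest riser, and of VIM, the most abundant gene, are printed to set the regulated gene beside the abundant one. Each is the 250 bases before the annotated start, from RefSeq on GRCh38.p14, read 5′ to 3′ on the gene's strand, with capitals marking a GC box. The NES window is chr1:156677408-156677657 on the minus strand and the VIM window is chr10:17227991-17228240 on the plus strand.
NES: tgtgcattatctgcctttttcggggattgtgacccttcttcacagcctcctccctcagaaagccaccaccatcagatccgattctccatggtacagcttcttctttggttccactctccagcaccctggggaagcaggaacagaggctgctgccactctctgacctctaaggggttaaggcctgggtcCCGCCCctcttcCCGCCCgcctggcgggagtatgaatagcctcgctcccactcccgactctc
VIM: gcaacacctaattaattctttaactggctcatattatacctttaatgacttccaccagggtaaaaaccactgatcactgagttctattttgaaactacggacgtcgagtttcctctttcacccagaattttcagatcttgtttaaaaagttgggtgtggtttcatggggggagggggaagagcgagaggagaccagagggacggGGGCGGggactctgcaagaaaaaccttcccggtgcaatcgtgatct

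Both windows were searched on both strands for the AP-1 motif TGANTCA, the cyclic AMP response element TGACGTCA, the TATA box TATAAA and the GC box GGGCGG. The NES window held 2 GC boxes, starting 62 and 50 bases before the start, and the VIM window held 1, starting 46 bases before it. Neither window held the AP-1 motif, which 6.60% of 27305 promoter windows of this length held, against 42.3% for the GC box, 11.1% for the TATA box and 1.77% for the response element. Of the 10 genes 5 had a promoter entry. INA and SYNM each held 4 GC boxes, a pair of those of SYNM overlapping each other, and PRPH held a TATA box 31 bases before its start. DES, NEFL, NEFM, NEFH and GFAP had no entry.

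NES was at 1.85, 2.65 and 2.95 CPM in Control samples 1 to 3 and at 14.04, 12.4 and 10.6 CPM in BRG1 samples 1 to 3. Every BRG1 sample was above every Control sample, and the lowest BRG1 value came from the shallowest library. In edgeR NES rose by 2.31 on the log2 scale (standard error 0.25, adjusted p 8.8e-04). Number by number, the rise was 7.595-fold, 4.69-fold and 3.59-fold. No exon of another annotated gene overlaps the exons of NES. Its call was kept in all 14 alternatives, with log2 fold changes from 2.14 to 2.45.

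DES was at 0 counts in Control samples 1 to 3 and at 92, 41 and 18 counts in BRG1 samples 1 to 3. On the CPM scale the BRG1 samples were at 1.42, 0.738 and 0.591. The groups did not overlap, as was the case, in the direction of higher BRG1 values, for 15.9% of all tested genes (11.2% in the other direction, where no filament gene fell). A count of 0 allows up to 3 counts in each Control library, or 0.0492 to 0.0803 CPM, and this limit covers counting error only. Against 3 counts per Control library DES was at least 13.3-fold higher, a bound that was not itself tested. The edgeR adjusted p of 0.00436 came from the counts as they stood, with Control at 0. DES passed the low-count filter through its BRG1 samples alone. The level reached stayed low, at 13370 in rank of mean CPM among the 14246 tested genes.

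Markers of muscle were read beside DES, because desmin belongs to muscle. Of 12 muscle markers 7 were tested, and 1 was called higher and 0 lower, beside 9.57% and 1.02% of all tested genes. That gene was TNNT2, cardiac troponin T, which went from 0.0536, 0.103 and 0.0985 CPM in Control to 38.7, 17.3 and 8.54 CPM in BRG1 samples (log2 fold change 7.91, edgeR adjusted p 4.3e-04). TNNT2 held 6 counts or fewer in every Control library and passed the low-count filter through its BRG1 samples. The share called in this list therefore carries no weight against the background. With the replicate block 3 muscle markers were called higher. The further ones were TAGLN and CNN1, contractile genes of smooth muscle, with block adjusted p-values of 0.00154 and 0.00769 (edgeR). The summed level of the list ran from 775 to 1104 CPM in Control and from 1115 to 1935 CPM in BRG1 samples, and most of it was TAGLN. The muscle regulators MYOD1 and MYOG were at 0 in every Control library and at 3 counts or fewer in every BRG1 library, as was the actin gene ACTC1. The part of muscle-like cells in the DES value was not tested. In these bulk samples a change in the number of expressing cells and a change in RNA per cell cannot be told apart.

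Markers of neural progenitors were read beside NES in the same way. Of 10 markers 5 were tested and 0 were called in either direction by edgeR or DESeq2, with 0 at an unadjusted edgeR p under 0.05. MSI1, an RNA-binding protein of progenitors and the most abundant of them, averaged 8.06 ± 1.28 CPM in Control (SD, n = 3) and 7.99 ± 0.511 CPM with BRG1. The summed level ran from 11.95 to 15.9 CPM in Control and from 13.8 to 15.9 CPM in BRG1 samples, so these ranges overlapped where those of NES did not. HES5, a progenitor factor, held 1 count or none in every sample, and NEUROG2 held 0, 0 and 2 counts in Control and 8, 4 and 3 in BRG1 samples.

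VIM (chromosome 10, 17228241 to 17237593, plus strand) was at 33.1, 26.7 and 31.6 CPM in Control samples 1 to 3 and at 51.5, 40.2 and 31.6 CPM in BRG1 samples 1 to 3. BRG1 sample 3 lay within the Control range and BRG1 samples 1 and 2 lay above it. The log2 fold change was 0.43, with a 95% interval from -0.02 to 0.88 and an edgeR adjusted p of 0.263. Number by number, VIM stood at 1.56, 1.51 and 0.998 times its Control value. With the replicate block the 95% interval was 0.09 to 0.74, and the edgeR adjusted p was 0.0806. Without BRG1 replicate 3 the edgeR adjusted p was 0.0519. These values neither place VIM past the threshold nor show that it was unchanged. VIM ranked 5737 by mean CPM among the 14246 tested genes. Exons of antisense transcripts, VIM-AS1 among them, lie over 24.6% of its exonic bases, and the libraries do not keep strand.

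**Figure D2:**
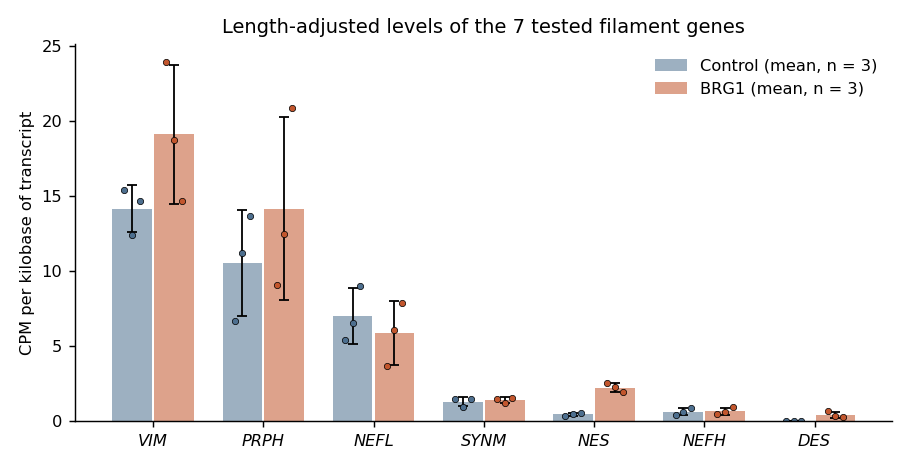
Mean CPM per kilobase of canonical transcript (bars, from 0), SD (error bars) and single samples (points) of the 7 filament genes tested, n = 3 per group. VIM, PRPH and NEFL stand highest in both groups, and NES passes SYNM and NEFH in the BRG1 samples.

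Levels of different genes were compared per kilobase of their canonical transcript. In Control the order was VIM (14.1 ± 1.56 CPM per kilobase, SD, n = 3), PRPH (10.5 ± 3.53) and NEFL (6.99 ± 1.84), followed by SYNM, NEFH, NES and NEFM, and then GFAP and INA near 0 and DES at 0. The ranges of VIM and PRPH overlapped, as did those of PRPH and NEFL, although within each Control library VIM was above PRPH and PRPH above NEFL. Those of NEFH and NES overlapped, and so did those of NES and NEFM. In BRG1 samples the order was VIM (19.1 ± 4.64), PRPH (14.1 ± 6.08), NEFL (5.87 ± 2.12), NES (2.22 ± 0.308), SYNM (1.40 ± 0.186) and NEFH (0.652 ± 0.237), then DES (0.409 ± 0.198). NES thus moved from rank 6 to rank 4 among the filament genes, above SYNM in 3 of 3 BRG1 libraries. VIM was above PRPH in 2 of 3 BRG1 libraries, since in sample 3 PRPH was at 20.9 and VIM at 14.7 CPM per kilobase.

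Shares of the filament transcripts, also per kilobase, were taken within each library. VIM, PRPH and NEFL together held 91.9% to 93.5% of the filament transcripts in Control and 87.6% to 90.1% in BRG1 samples. VIM alone held 51.7%, 38.4% and 36.1% in Control samples 1 to 3 and 57.2%, 44.9% and 30.4% in BRG1 samples 1 to 3. The mean share of VIM differed by 2.09 percentage points, far inside the spread (two-sided exact permutation p = 0.9, where 0.1 is the smallest that 3 samples against 3 allow). NES held 1.30% ± 0.183 in Control (SD, n = 3) and 5.12% ± 1.06 with BRG1, and NEFL held 20.3% ± 2.00 and 13.2% ± 3.98. Neither the NES shares nor the NEFL shares overlapped between groups (two-sided exact permutation p = 0.1 for each, the smallest possible here). The DES shares did not overlap either, with Control at 0. Shares of a whole move together, so these are not separate results.

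Ratios within a library do not depend on library scaling. For every 100 VIM transcripts, Control samples 1 to 3 held 2.16, 3.84 and 3.62 NES transcripts and BRG1 samples 1 to 3 held 10.5, 11.9 and 13.0. The NES to VIM ratio was highest in BRG1 sample 3, the library with the lowest NES value of its group. SYNM, the other partner subunit, was at 9.06 ± 1.22 per 100 VIM in Control (SD, n = 3) and 7.70 ± 2.55 with BRG1, and these ranges overlapped.

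VIM was also set beside a keratin and a lamin. KRT6A, a keratin of stratified epithelium, rose to 3000, 2196 and 1218 CPM in BRG1 samples from 9.91, 6.55 and 4.66 CPM in Control (log2 fold change 8.25, edgeR adjusted p 8.6e-05). Per kilobase, VIM stood at 358, 436 and 727 for every 100 KRT6A transcripts in Control and at 1.84, 1.96 and 2.78 in BRG1 samples. VIM therefore exceeded KRT6A in each Control library and was a small fraction of it in each BRG1 library, while VIM itself was not called. This holds for KRT6A taken alone. By group mean with BRG1, each other keratin examined here, taken singly, was below VIM, which was at 19.1 ± 4.64 CPM per kilobase (SD, n = 3). The highest of them were KRT4 at 11.5 ± 11.2 and KRT8 at 10.4 ± 5.92, followed by KRT17 at 9.87 ± 7.56 and KRT5 at 8.77 ± 6.95. In BRG1 sample 1 KRT4 was at 51.8 CPM and VIM at 51.5 CPM, with transcripts of 2.14 and 2.15 kilobases. The sum of these keratins was not compared with VIM. KRT6A shares sequence with its near copies, so its part of those reads is uncertain.

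The neurofilament genes and PRPH did not pass the test in either direction. NEFL (chromosome 8, 24950955 to 24956721), the core subunit of neurofilaments, was at 19.4, 23.5 and 32.3 CPM in Control and at 13.1, 21.8 and 28.2 CPM in BRG1 samples 1 to 3. Its groups overlapped, and it was lower with BRG1 within each replicate number, with folds of 0.677, 0.927 and 0.874. The log2 fold change was -0.26 (95% interval -0.96 to 0.44, edgeR adjusted p 0.715). With the replicate block the interval was -0.57 to -0.001, and the edgeR adjusted p of 0.146 still missed the threshold. The log2 fold change was -0.01 without BRG1 replicate 1 and -0.03 without Control replicate 3. Exons of an antisense transcript lie over 19.8% of the exonic bases of NEFL.

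PRPH (chromosome 12, 49295147 to 49298686) was at 12.03, 20.2 and 24.6 CPM in Control and at 16.3, 22.5 and 37.6 CPM in BRG1 samples 1 to 3. It was higher within each replicate number, by 1.35-fold, 1.11-fold and 1.53-fold, but the groups overlapped (log2 fold change 0.42, edgeR adjusted p 0.594). The replicate block brought the edgeR adjusted p to 0.0589, and DESeq2 with the block called it (adjusted p 0.0374), in a fit that called 13.4% of all genes higher and 6.61% lower. Without BRG1 replicate 3 the log2 fold change of PRPH was 0.06. Exons of the antisense gene TROAP-AS1 cover 71.5% of the exonic bases of PRPH, so its value cannot be told apart from antisense RNA in these libraries.

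NEFH (chromosome 22, 29480218 to 29491390), the heavy neurofilament subunit, was at 1.5, 2.24 and 3.23 CPM in Control and at 1.75, 2.20 and 3.48 CPM in BRG1 samples. Its log2 fold change of 0.07 (95% interval -0.83 to 0.98) changed sign in 3 of the alternatives. In NEFL, NEFH and PRPH alike, sample 1 was the lowest and sample 3 the highest of each group. Blocking on that number narrowed the standard error from 0.30 to 0.12 for NEFL, from 0.39 to 0.23 for NEFH and from 0.36 to 0.12 for PRPH. The replicates are described as biological, and what same-numbered samples share is not given in the sources used here.

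**Figure D3:**
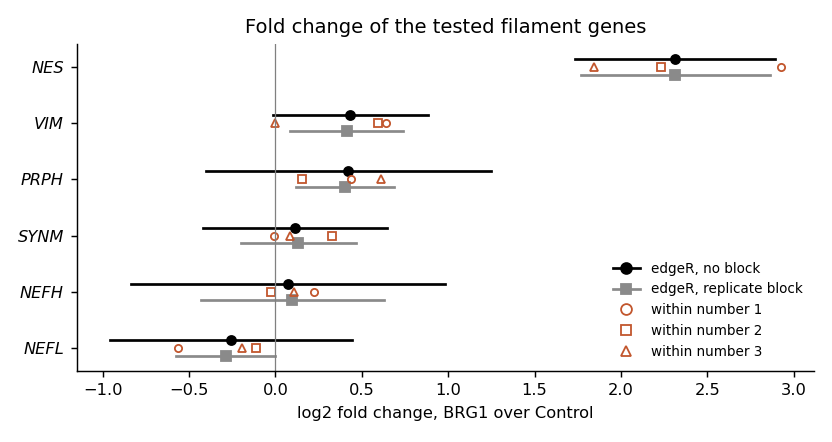
Log2 fold change of BRG1 over Control for 6 of the 7 tested filament genes, from edgeR without (black circles) and with (grey squares) the replicate block, with 95% intervals, and the fold within each replicate number (open orange symbols). DES is left out because its Control samples were at 0 counts. NES lies clear of 0, at 2.31, and the intervals of the other genes without the block reach across 0.

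SYNM (chromosome 15, 99098217 to 99135593) was at 10.7, 6.99 and 10.8 CPM in Control and at 10.6, 8.79 and 11.5 CPM in BRG1 samples 1 to 3. The groups overlapped, and the log2 fold change was 0.11 with a 95% interval from -0.42 to 0.64 (edgeR adjusted p 0.845). The partner subunits NES and SYNM therefore had separate outcomes in the test, although the difference between them was not itself tested. Exons of the antisense genes SYNM-AS1 and SYNM-AS2 lie over 27.8% of the exonic bases of SYNM.

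NEFM, INA and GFAP did not pass the low-count filter. NEFM (chromosome 8, 24913758 to 24919098), the medium neurofilament subunit, held 4, 7 and 77 counts in Control samples 1 to 3 and 16, 10 and 6 in BRG1 samples. Its Control mean rested on sample 3, which stood at 1.26 CPM, where every other sample was at 0.247 CPM or less. Exons of an antisense transcript lie over 26.4% of the exonic bases of NEFM. INA (chromosome 10, 103277138 to 103290346) held between 1 and 5 counts in every sample. GFAP (chromosome 17, 44903159 to 44916937) held 0 to 8 counts, and exons of CCDC103 and FAM187A lie over part of it. edgeR did not test these 3 genes, and DESeq2, which did, gave adjusted p-values of 0.539 for NEFM, 0.892 for INA and 0.943 for GFAP.

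Neuron and glia markers were read beside the neurofilament genes and GFAP. Of 13 neuron markers 10 were tested, and MAP2, a microtubule protein of dendrites, was the 1 called higher (log2 fold change 1.15, edgeR adjusted p 0.0198), with 0 called lower and 1 lower at an unadjusted p below 0.05. The list had 0 called higher without Control replicate 2 or 3 and without BRG1 replicate 1 or 2. In the blocked edgeR fit 2 were called higher, MAP2 and the tubulin gene TUBB3 (edgeR adjusted p 0.0279), and SYP, the synaptic vesicle protein synaptophysin, was called lower (edgeR adjusted p 0.00363). DESeq2 made the TUBB3 and SYP calls without the block too (adjusted p 0.0233 and 0.0216), and with the block it added STMN2, a neuronal tubulin-binding protein, as lower (adjusted p 0.0281). The summed neuron level ran from 268 to 363 CPM in Control and from 206 to 341 CPM in BRG1 samples. The glia markers S100B, a calcium-binding protein, and SOX10, a transcription factor, held 0 counts in every sample. The part of such cells in the filament values was not tested.

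Beyond the 10 genes, 8 further intermediate filament genes outside the keratins were examined: 3 nuclear lamins, 2 lens filament genes, syncoilin and a pair of related genes. Of these 7 were tested, 2 were called higher and 0 lower by edgeR, with 0 lower at an unadjusted p under 0.05, and their median log2 fold change was 0.68. LMNA, which encodes the A-type lamins of the nuclear envelope, rose from 160, 175 and 156 CPM to 541, 525 and 333 CPM (log2 fold change 1.51 with a standard error of 0.19, edgeR adjusted p 0.00171). SYNC, or syncoilin, a partner of desmin in muscle, rose from 2.22, 1.11 and 1.71 CPM to 19.0, 12.1 and 7.45 CPM (log2 fold change 2.94, edgeR adjusted p 0.00303). In LMNA and SYNC every BRG1 sample was above every Control sample. IFFO2 was not called by edgeR without the block (adjusted p 0.0624), and was called higher with it (0.00835) and by DESeq2 without it (0.00134). LMNB1, a B-type lamin, stood at 0.477, 0.821 and 0.882 times its Control value number by number, and only DESeq2 with the block, of these 4 fits, called it lower (adjusted p 0.0163; edgeR with the block 0.0766). The lens gene BFSP2 held 0 counts in every sample.

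Plakins are the giant linkers that tie intermediate filaments to junctions, actin and microtubules. Of 7 plakin genes 6 were tested, 3 were called higher and 0 lower, with a median log2 fold change of 1.01. PPL, periplakin, rose from 9.43, 3.91 and 8.30 CPM to 64.5, 51.3 and 41.2 CPM (log2 fold change 2.86, edgeR adjusted p 0.00131). DSP, desmoplakin of the desmosome, rose 3.34-fold (edgeR adjusted p 0.00268), and EPPK1, epiplakin, rose from 0.223 ± 0.104 to 4.12 ± 2.44 CPM (SD, n = 3, edgeR adjusted p 0.00345). EPPK1 held 12 counts or fewer in every Control library and passed the low-count filter through its BRG1 samples. The share called in the plakin list therefore carries no weight against the background.

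Kinases, chaperones and turnover genes of the filaments were examined as a list of 18, all tested. The protease gene CAPN2, a calpain, was the 1 called higher (log2 fold change 1.02, edgeR adjusted p 0.0216), and 0 were called lower, with 2 lower at an unadjusted p under 0.05 and 0 by DESeq2. The list had 0 genes called higher when any Control replicate or BRG1 replicate 2 was left out. With the replicate block edgeR called 3 higher and 1 lower, and DESeq2 called 3 higher and 5 lower. HSPB1, a small heat shock protein, and BAG3, a co-chaperone, joined CAPN2 (edgeR adjusted p 0.0163 and 0.0297), and the kinase gene PAK1 was lower (edgeR adjusted p 0.0389). The further 4 lower in DESeq2 with the block were the mitotic kinase genes AURKB, CDK1 and PLK1 and the chaperone gene HSPA8, with adjusted p from 0.0163 to 0.0271. Each of the 4 was lower within all 3 replicate numbers. The block moved the background as well, to 13.7% of genes called higher and 5.68% called lower. DESeq2 without the block called 11.0% higher and 1.84% lower.

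Mesenchymal genes were read beside VIM, a common mesenchymal marker. Of 14 mesenchymal genes 13 were tested, 5 were called higher and 0 lower, with 0 lower at an unadjusted p under 0.05. On the log2 scale SPARC, a matrix protein, rose by 7.22, the growth factor receptor gene PDGFRB by 5.40 and S100A4 by 4.74, and SNAI2 was at least 16.4-fold higher than 3 counts per Control library. PDGFRB, S100A4 and SNAI2 held 7 counts or fewer in every Control library and passed the low-count filter through their BRG1 samples, so the share called carries no weight against the background. Of 12 epithelial genes 10 were tested and 9 were called higher, beside 9.57% of all tested genes. KRT4, KRT7, KRT13 and KRT14 held 3 counts or fewer in every Control library and passed the low-count filter through their BRG1 samples. KRT5 and KRT17, with 14 counts or fewer in every Control library, passed it in that way too. The share called in this list therefore carries no weight against the background either. KRT6A, KRT8, KRT14 and KRT13 led by adjusted p, and KRT14 and KRT13, with Control at 3 counts or fewer, were at least 149-fold and 41.4-fold higher. The summed epithelial level ran from 5.60 to 12.1 CPM in Control and from 1252 to 3178 CPM in BRG1 samples, and most of the BRG1 sum was KRT6A. The 9 called were all keratins. Of the adhesion genes in the list, CDH1, or E-cadherin, held 3, 49 and 5 counts in Control and 43, 10 and 16 in BRG1 samples (edgeR adjusted p 0.993), and EPCAM held 1 count or none in every sample. The summed level of the 10 filament genes ran from 78.9 to 107 CPM in Control and from 109 to 124 CPM in BRG1 samples.

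**Figure D4:**
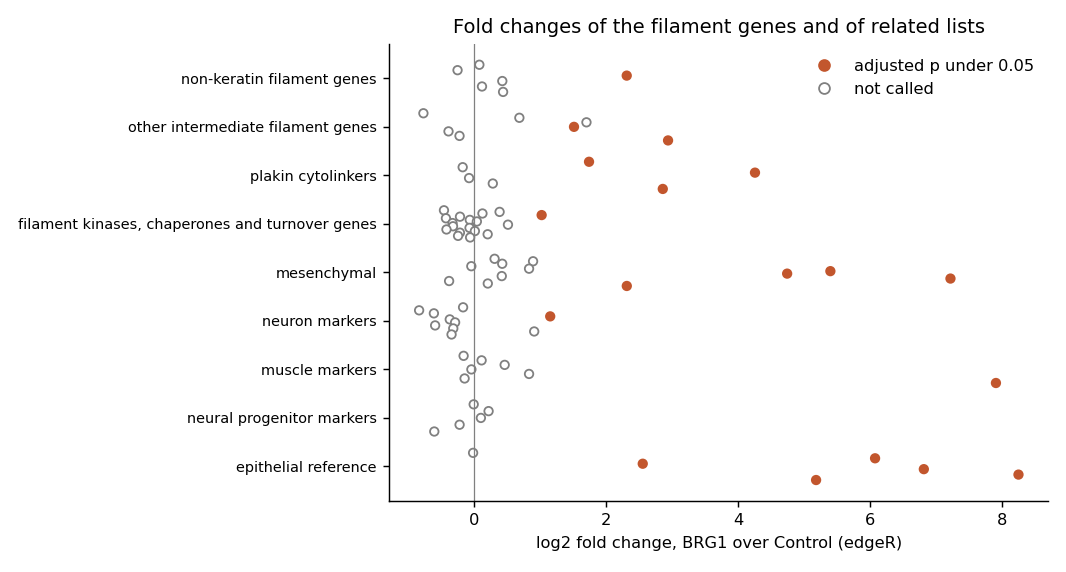
Log2 fold change of BRG1 over Control (edgeR) for tested genes of each list shown, with Control above 3 counts in at least 1 library; filled points have an adjusted p under 0.05. NES is the filled point among the non-keratin filament genes, and the called plakin, mesenchymal and epithelial genes lie to the right of 0, up to 8.25 for KRT6A.

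The genes whose pattern was most like that of VIM were listed by Pearson correlation of log2 CPM over the 6 samples, among 11755 other genes with a mean of at least 100 counts. They were COPA (r = 0.995), CMIP (r = 0.993), DAAM1 (r = 0.993), PGRMC2 (r = 0.993) and AFAP1 (r = 0.992). None of these 5 genes was called, with edgeR adjusted p-values from 0.151 to 0.509. The samples differ in depth and include pairs that share a replicate number, so these correlations are a description.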

How the data were processed

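RNA from 3 Control and 3 BRG1 samples of COV434 was made into unstranded poly(A) libraries and sequenced as pairs of 78 bases. The authors aligned reads with STAR (2.5.3a) to GENCODE release 24, quantified transcripts with salmon (0.8.2) and used tximport for gene totals. Per the labels and methods, what was deposited are estimated counts (lengthScaledTPM), not divided by library size, and salmon divides reads that fit several genes. The submitters describe the 3 replicates of each group as biological.

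Counts were rounded. Of 19899 genes, 18096 had a count in any sample and 14246 passed filterByExpr. edgeR (4.0.16, R 4.3.3) with TMM factors and no covariate was the main test. DESeq2 (1.42.0), which the study used, was an alternative, because an earlier pass over these data had found it to make excess false calls. On simulated data for this comparison with 200 changed genes 24.2% of its calls were false over 18096 genes, against 6.74% for edgeR over 14274. Without the filter edgeR was at 9.45%, and with the replicate block at 9.18%. The simulated counts used dispersions estimated by edgeR and held no effect of the replicate number, so they do not match the data in this respect. Standard errors and 95% intervals were derived from the F statistic. Same-numbered samples had deviations from their group means correlated at 0.480, 0.486 and 0.562, so the numbers were taken as pairs and blocked in an alternative. limma-voom (limma 3.58.1), other scaling, no filter, a threshold of 0.01 and leaving out each sample were also run. Lengths are GENCODE 44 canonical transcripts. The filament genes and lists were chosen with earlier results of these data known. All 10 filament genes are named. From each list up to 4 called genes by smallest adjusted p are named, or the most abundant where none was called; genes named beyond that, for a call with the block or by DESeq2, or for low counts, were chosen after their values were seen, as were the within-library ratios. The test results of the glia marker list are not reported here.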

Additional observations from a re-analysis of the deposited data

How the results depend on the processing

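NES and DES were called higher in all 14 alternatives, and the count of filament genes called higher was 2 in each except 3 with DESeq2 and the replicate block, which added PRPH (adjusted p 0.0374). The count called lower was 0 in all of them. With the replicate block in edgeR the counts of filament genes stayed at 2 and 0, and the block changed no other call of a filament gene. The log2 fold change of NEFH reversed to -0.013 with limma-voom, and leaving out a replicate gave -0.215 (without BRG1 replicate 3) to 0.392 (without Control replicate 3), with -0.162 without Control replicate 1. That of SYNM lay between -0.069 (Control replicate 2 left out) and 0.24 (BRG1 replicate 2 left out). With single replicates left out PRPH lay between 0.061 and 0.657, NEFL between -0.497 and -0.009 and VIM between 0.242 (BRG1 replicate 1) and 0.63 (BRG1 replicate 3). VIM was not called in any alternative, with adjusted p from 0.0519 to 0.660. The difference in VIM share, 2.09 percentage points, was 2.09 with the replicate block (exact p = 0.75) and leaving out single replicates gave values between -4.44 (BRG1 replicate 1) and 8.96 (BRG1 replicate 3), with -0.88 for Control replicate 3.

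Over all genes, the 1364 called higher were 2095 with DESeq2 and the replicate block and 1950 with edgeR and the block. The 146 called lower were 294 with DESeq2, 86 with library totals only, 809 with the replicate block, 1035 with DESeq2 and the block and 31 at an adjusted p under 0.01, and leaving out a replicate gave as few as 39 (BRG1 replicate 2) and as many as 256 (BRG1 replicate 3). The causes were not tested. Of 252 counts in the related lists under alternatives, 215 stayed within 1.5 times. The counts of CAPN2's and MAP2's lists called higher fell from 1 to 0 at an adjusted p under 0.01. NEFM, INA and GFAP did not pass the low-count filter.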
